A study of Homo sapiens with 4 samples.

Results

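Domains of 100 to 450 kb are the bulk of the listed chromosome domains of VA-ES-BJ cells, a cell line from an epithelioid sarcoma. They were chosen by their measured length alone, the end minus the start of each domain listed on the 22 autosomes. They numbered 17347 of the 26136 domains in 4 lists, or 6842 distinct start and end pairs once the numbering of the lists was aligned. Hi-C ligates DNA that lies close together in the nucleus and reads the joined pieces as pairs. The submitters reduced each library to 1 list of domains. Cells carried either an empty lentiviral vector (lists A and B) or a vector that expresses BAF47 constitutively (lists A and B), and blasticidin at 10 µg/ml was used to select both. Formaldehyde was used at 1% in all 4 samples. In the labels, 48 h refers either to virus exposure or to selection, and 5 days either to selection or to further growth. They name no clone and do not say whether A and B were separate infections, so p-values measure only the spread between these lists, which may be technical.

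A topologically associating domain is a stretch of chromosome whose parts meet each other more often than they meet the DNA outside. Its edges are commonly marked by the protein CTCF and by cohesin, the ring complex that extrudes chromatin loops, and they limit which enhancers reach which promoters. BAF47, the product of SMARCB1, belongs to the core of the BAF (SWI/SNF) complex, which moves nucleosomes and opens enhancers. Epithelioid sarcomas commonly lack it. The comparison asks whether the common domains of such cells keep their ends when BAF47 is put back.

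All listed ends fell on a 50 kb grid, called bins here. In all 20 lists of the 5 acrocentric chromosomes (5 chromosomes in 4 lists) the first domain started at 0, although hg18 opens each of them with unsequenced short arm. Positions are therefore in the numbering of the lists and are not hg18 coordinates, so no gene or sequence was placed on them. Lengths likewise do not count bins that were left out. The lists hold no counts, so depth is unknown. Neighbouring domains were separated by exactly 1 bin in 22759 cases over the 4 lists, by 3 bins (150 kb) in 1839 cases and by 2 bins in 0 cases. A single bin between neighbours is called a boundary bin, and a wider stretch an unlisted stretch.

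The numbering of the lists was out of step on chromosomes 9 and 20, and this touches every comparison of exact positions. On chromosome 9 from 51.2 Mb on, empty vector B held 93 of its 126 domains of 100 to 450 kb exactly where empty vector A did. BAF47 A held 0 of 128 there as listed and 93 (72.7%) once moved 1 bin down. BAF47 B held 1 of 130 as listed against empty vector A in that stretch and 83 after the move. The BAF47 lists were in step with each other, with 89 of the 130 domains of BAF47 B identical in BAF47 A as listed. Among domains of this length below 51.2 Mb, BAF47 A and B matched 42 of 57 and 41 of 55 with empty vector A as listed. The bin at which the numbering steps cannot be fixed from the lists: in BAF47 B the first start that matched only after the move was at 38.65 Mb, and no domain of 100 to 450 kb lay between there and 51.2 Mb. On chromosome 20 only BAF47 B differed: from 17.4 Mb on, 0 of its 94 domains matched empty vector A as listed and 70 (74.5%) did so once moved 1 bin up. BAF47 A matched 64 of its 94 there as listed. On the other 20 chromosomes, 56.1% to 78.8% of each list's domains matched empty vector A as listed, and at most 1.09% matched 1 bin away in either direction. Values below are on the numbering of empty vector A, and the main values are also given as listed.

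Both BAF47 lists held more domains of 100 to 450 kb than both empty vector lists. Empty vector A listed 4324 and empty vector B 4292, and BAF47 A listed 4366 and BAF47 B 4365. The groups did not overlap. Neither did the totals over all lengths, with 6530 and 6486 domains with empty vector and 6531 and 6589 with BAF47. The means for 100 to 450 kb were 4308 ± 22.6 and 4366 ± 0.71 (SD, n = 2), a difference of 57.5 domains or 1.33%. It exceeded the gap of 32 between the empty vector lists and of 1 between the BAF47 lists (exact two-sided permutation p = 0.33, the smallest that 6 label assignments allow). The excess lay at the shorter lengths: BAF47 had 24.5 more domains of 100 kb, 26 more of 150 kb and 26 more of 200 kb in the mean, and at the other 5 lengths from 6 fewer to 1.5 more. There were 853.5 ± 2.12 domains of 150 kb with empty vector and 879.5 ± 7.78 with BAF47, and 730 ± 19.8 against 756 ± 1.41 of 200 kb (SD, n = 2). These were the only lengths of the 8 at which the groups did not overlap. With 2 lists against 2, such a separation has an exact permutation p of 0.33. It therefore often arises among 8 lengths by label assignment alone.

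Domains became rarer with each step in length. In the mean over the 4 lists, 1158 domains were 100 kb long and made up 26.7% of the set, and 866.5 were 150 kb long. There were 743 of 200 kb, 526.5 of 250 kb, 370.25 of 300 kb, 300.25 of 350 kb and 218.75 of 400 kb. Domains of 450 kb, the longest inside the limit, numbered 164, 149, 154 and 148 in the order empty vector A and B, BAF47 A and B. Those of 500 kb, just outside, numbered 129, 138, 130 and 134. At the short limit, 100 kb domains numbered 1165, 1126, 1147 and 1193, and 50 kb domains, just outside, 1187, 1161, 1142 and 1191. Counts of 50 kb and 100 kb domains were thus close, and BAF47 B was the highest list for both.

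**Figure D1:**
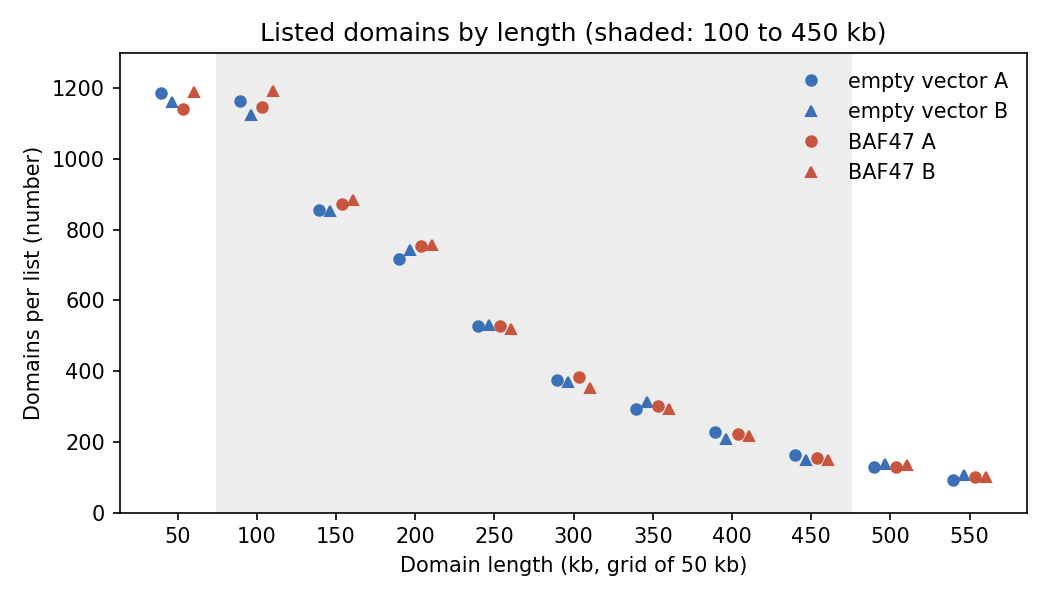
Number of listed domains (vertical axis) by domain length in kb (horizontal axis) for the 4 lists, circles for A and triangles for B, with points set side by side within a length. Counts fall from 1126 to 1193 at 100 kb to 148 to 164 at 450 kb, and the vectors stand apart at 150 and 200 kb only.

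The set made up a like part of every list. It was 66.2% of the domains of both empty vector lists, 66.9% of those of BAF47 A and 66.2% of those of BAF47 B, and BAF47 exceeded empty vector by 0.35 percentage points in the mean (exact permutation p = 0.33). This is less than the 0.60 points that separated the BAF47 lists. Without BAF47 A the difference was 0.05 points and without BAF47 B 0.66. The groups overlapped in this share without chromosomes 9 and 20, and with limits of 150 to 400 kb or 100 to 500 kb (exact permutation p = 0.67 each). The median length was 200 kb in all 4 lists. The mean length was 208.2 and 207.9 kb in the empty vector lists and 207.9 and 205.1 kb in the BAF47 lists. The difference of -1.55 kb rested on BAF47 B: it was -0.13 kb without that list, and -2.96 kb without BAF47 A. The domains covered 900.05, 892.4, 907.7 and 895.15 Mb in the same order, so that the groups overlapped in covered length. This was 40.7% to 41.4% of all the listed length.

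About 7 in 10 of these domains were found again, with both ends in the same bins, in any other list, and slightly more often in a list of the same vector. Exact retention is the percentage of a list's domains of 100 to 450 kb that another list holds identically, averaged over both directions of a pair. It was 73.6% between the empty vector lists and 74.3% between the BAF47 lists. The 4 pairs of different vectors had 71.1% (A with A), 71.2% (empty vector A with BAF47 B), 70.3% (empty vector B with BAF47 A) and 71.3% (B with B). Both pairs within a vector lay above all 4 pairs between vectors. Retention was thus 2.99 percentage points higher within a vector on the aligned numbering, where the SD was 0.46 points over each kind of pair. As listed it was 4.93 points, with 67.6% to 68.9% between vectors and 72.6% between the BAF47 lists. Pairs share lists, so no test was made of this difference. With 2 lists against 2, label assignment alone can also give such a separation of the pairs.

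Retention hardly varied with length inside the set. Within a vector it ranged from 72.1% at 250 kb to 76.2% at 450 kb, and between vectors from 68.6% at 250 kb to 72.3% at 200 kb. At each of the 8 lengths the mean within a vector was the higher, by 1.10 points at 350 kb up to 7.40 points at 450 kb. That last value rests on 148 to 164 domains a list. As listed, the gap was 3.35 points at 350 kb, 9.99 points at 450 kb and between these at the other lengths. Shorter and longer domains stood beside this as follows. Domains of 50 kb were retained at 65.9% within and 62.0% between vectors, those of 500 to 950 kb at 74.2% and 68.2%, and those of 1 Mb or more at 70.0% and 66.8%. The gap between the kinds of pair was 3.84, 6.03 and 3.20 points in these classes, against 2.99 in the set of 100 to 450 kb. As listed it was 5.64, 8.12 and 5.42 points, against 4.93. Differences between length classes were not tested, because domains of different length share their boundary bins.

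**Figure D2:**
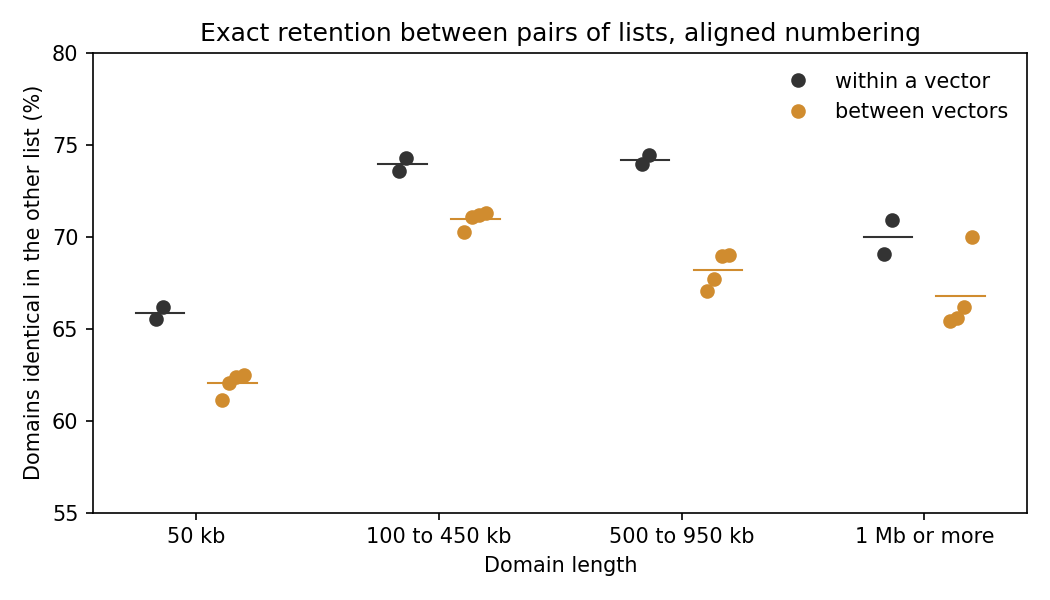
Exact retention in percent (vertical axis, starting at 55%) for 4 classes of domain length, with 1 point per pair of lists and a line at the mean. Black points are the 2 pairs within a vector and orange points the 4 pairs between vectors. At 100 to 450 kb the black points (73.6% and 74.3%) lie above the orange ones (70.3% to 71.3%).

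Of the 6842 distinct domains of 100 to 450 kb, 2399 (35.1%) were in all 4 lists, 1018 (14.9%) in 3, 1272 (18.6%) in 2 and 2153 (31.5%) in 1 list alone. The domains of a single list were spread evenly, 532 and 534 in the empty vector lists and 548 and 539 in the BAF47 lists. Of the domains in exactly 2 lists, 287 were in both empty vector lists and 310 in both BAF47 lists. The pairs made of 1 list of each vector held fewer: 190 (A with A), 155 (empty vector A with BAF47 B), 163 (empty vector B with BAF47 A) and 167 (B with B). As listed, 2280 of 7048 domains were in all 4 lists, and 378 were in both lists of each vector only. The share found in all 4 lists was 32.5% to 36.7% at every length, lowest at 250 kb and highest at 200 kb.

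Domains that both lists of a vector agreed on were mostly kept by the other vector. Both empty vector lists held 3171 identical domains of 100 to 450 kb. Of these, 2399 or 75.7% (95% Wilson interval 74.1 to 77.1%, which covers counting error only) were in both BAF47 lists, 485 (15.3%) in 1 and 287 (9.05%) in neither. Both BAF47 lists held 3242, of which 74.0% (72.5 to 75.5%) were in both empty vector lists, 533 (16.4%) in 1 and 310 (9.56%) in neither. Among domains of every length, 10.4% of the 4679 shared by the empty vector lists were in neither BAF47 list, and 10.5% of the 4765 shared by the BAF47 lists were in neither empty vector list. The shares of the set thus lay near those of the whole. The 50 kb domains had 110 of 769 (14.3%) and 95 of 772 (12.3%) in neither list of the other vector, and the 500 to 950 kb domains 60 of 461 and 61 of 462 (13.2%).

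The counts of domains of 1 vector only depend on having all 4 lists. With 1 list left out, a domain has 1 list fewer to match or to miss. The empty vector count of 287 was 821 without empty vector A, 819 without empty vector B, 510 without BAF47 A and 549 without BAF47 B. The BAF47 count of 310 was 586, 567, 849 and 858 in the same order. With ends allowed to differ by 1 bin, 157 domains of the empty vector lists and 170 of the BAF47 lists had no counterpart in the other vector.

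By length, 8.42% to 9.32% of the shared empty vector domains of 100 to 400 kb were in neither BAF47 list, and 16.4% of the 116 of 450 kb were (10.7 to 24.2%). In the other direction the shares ran from 8.22% at 350 kb to 12.4% at 250 kb, with 11.9% at 450 kb. Intervals of neighbouring lengths overlapped throughout.

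**Figure D3:**
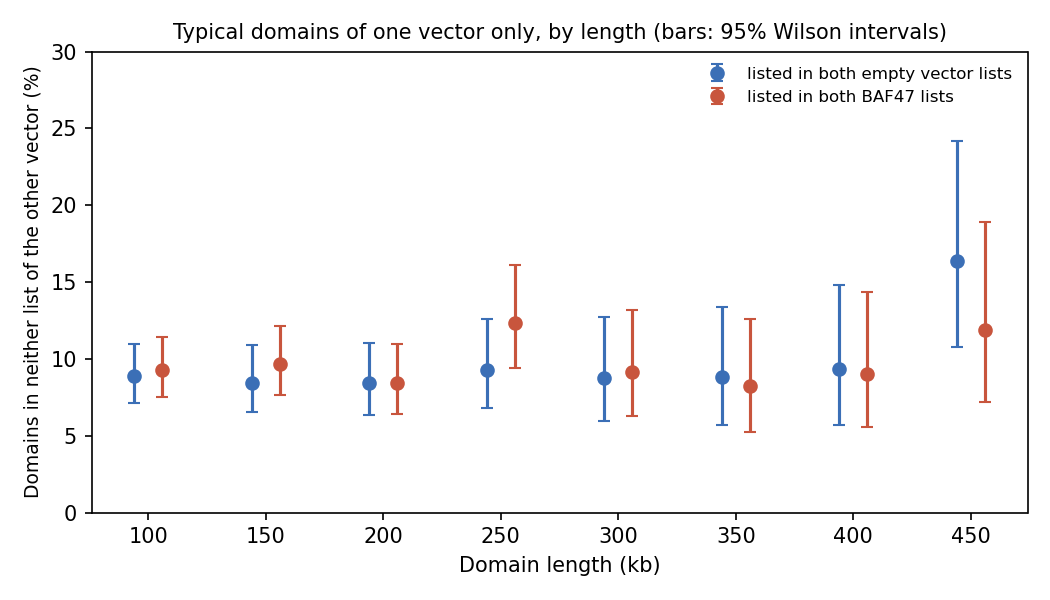
Share of the domains listed in both lists of a vector that were in neither list of the other vector (vertical axis, percent) by domain length in kb, with 95% Wilson intervals for counting error. Blue points start from empty vector domains and red points from BAF47 domains. Most shares lie between 8% and 13%, and the point at 450 kb with empty vector is 16.4%.

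Domains found in both lists of 1 vector only usually kept 1 of their ends in the other vector. Pairs of lists that mix the vectors held 155 to 190 domains found in no other list. The domains of 1 vector only, called changed here, thus need not all be changes between the vectors. Of the 287 domains of the empty vector lists only, 103 kept their start alone in both BAF47 lists and 81 their end alone, together 64.1% (58.4 to 69.4%). In 29 neither end was kept, in 26 both ends were kept by different domains, and in 48 the BAF47 lists differed. Of the 310 domains of the BAF47 lists only, 95 kept their start and 93 their end in both empty vector lists, together 60.6% (55.1 to 65.9%). In 39 neither end was kept, in 16 both were kept by different domains, and in 67 the empty vector lists differed. Starts and ends were thus kept about equally often, which shared boundary bins partly set. As listed, the share with 1 end kept was 45.8% and 48.1%, since a shift of the numbering moves both ends.

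Domains that differed between replicate lists, too, mostly kept 1 end. In the 4 comparisons of 1 list with its replicate, 1121 to 1153 domains of 100 to 450 kb were not identical. Of those, 77.0 ± 1.70% kept 1 end, 8.07% had both ends kept by different domains and 14.9 ± 0.98% kept neither end (SD over 4 ordered pairs). In the 8 comparisons across vectors, 1207 to 1324 were not identical, and 74.7 ± 1.72% kept 1 end, 8.36% both and 16.9 ± 0.93% neither (SD over 8 ordered pairs). Neither end was kept in 13.6% to 16.0% within vectors and in 15.9% to 18.2% between them, ranges that barely touched. Ordered pairs share lists, and no test was made.

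A moved end most often moved by the least step the grid allows. In 163 of the 184 one-end changes of empty vector domains, the other end lay at a single position in both BAF47 lists, and in 104 of these (63.8%) it lay 1 bin away. From the BAF47 side it was 112 of 162 (69.1%). Many of these changes are seen from both sides, since a domain of this length usually gave way to another: the new length was 100 to 450 kb in 125 of 163 and 124 of 162 cases. It was 50 kb in 17 and 22 cases and 500 kb or more in 21 and 16. Counted once, there were 225 one-end changes. With BAF47 the domain was longer in 113 and shorter in 112, and by 1 bin it was longer in 61 and shorter in 66. A boundary bin that moves makes a domain longer and its neighbour shorter, and both can enter this count. The near equality is thus partly set by how the lists are built. Moves of over 2 bins were fewer, with 40 longer and 32 shorter. Within vectors, too, most moved ends of the not identical domains moved by 1 bin (71.3 ± 1.48% of one-end changes, SD over 4 ordered pairs), and between vectors 68.3 ± 2.62% did (8 ordered pairs).

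**Figure D4:**
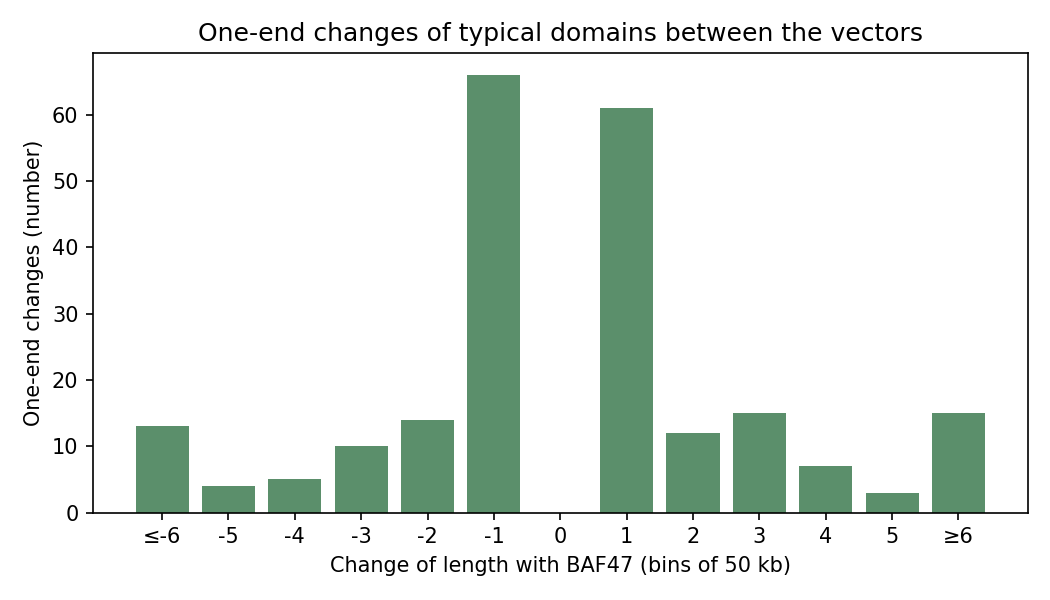
Number of one-end changes of domains of 100 to 450 kb (vertical axis) by the change of domain length with BAF47 against empty vector, in bins of 50 kb (horizontal axis, last bars hold 6 bins or more). The 225 changes are balanced around 0, which shared boundary bins partly set. The bars at 1 bin shorter (66) and 1 bin longer (61) are the tallest.

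Domains that kept neither end mostly lay inside a single longer domain of the other vector. Of the 29 empty vector domains with neither end in a BAF47 list, 23 lay inside a single longer domain in both BAF47 lists, 3 held a single shorter domain and 1 fell in a stretch with no listed domain. Of the 39 BAF47 domains, 24 lay inside a single longer domain in both empty vector lists, 4 held a shorter one and 8 fell where no domain was listed. Among these 29 and 39, once the numbering was aligned, 0 were moved as a whole by 1 bin in both lists of the other vector. Such moves in a single list were not counted here.

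Most domains of the set stood in unbroken series. In the 4 lists, 80.7% to 82.3% had a boundary bin on both sides, 15.5% to 17.0% on a single side and 2.11% to 2.31% on neither. The adjoining domain was itself 100 to 450 kb long in 68.6% to 69.2% of cases, which is near the 66.2% to 66.9% that this length makes up of each list. It was 50 kb long in 16.9% to 17.3%. Its median length was 200 kb in 3 lists and 150 kb in BAF47 B. Shared empty vector domains with a boundary bin on both sides were kept by both BAF47 lists in 76.3% (74.7 to 77.9%), and those beside an unlisted stretch or chromosome end in 74.3% (70.1 to 78.0%). For shared BAF47 domains the values were 75.2% (73.5 to 76.8%) and 69.8% (65.6 to 73.7%).

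Retention was also counted by the length of the neighbours. Shared BAF47 domains with a 50 kb neighbour, and boundary bins on both sides, were kept by both empty vector lists in 68.7% of 572 (64.8 to 72.4%). Those between neighbours of 100 to 450 kb were kept in 77.2% of 939 (74.4 to 79.8%), and those with a neighbour of 500 kb or more in 78.2% of 481. For shared empty vector domains the same classes gave 74.2% of 559 (70.5 to 77.7%), 76.2% of 976 (73.5 to 78.8%) and 79.8% of 480. The order of the classes in these kept shares was the same for both vectors. In the shares found in neither list of the other vector it was not. In the same order of classes these were 12.6%, 7.88% and 7.90% for BAF47 and 9.30%, 7.58% and 9.58% for empty vector. The intervals treat domains as independent, which adjoining domains are not, and no test was made.

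Adjoining domains share a boundary bin, so a moved end nearly always changes the neighbour by the way the lists are built. For empty vector domains with a one-end change, the adjoining domain on the moved side was itself in neither BAF47 list in 132 of 133 cases where both empty vector lists agreed on it. On the kept side it was in neither list in 5 of 142 cases, and 119 (83.8%) were kept in both. From the BAF47 side the counts were 134 of 139 on the moved side and 5 of 147 on the kept side. Of all domains of 1 vector only, 64.5% (empty vector) and 64.8% (BAF47) had a changed neighbour, a share that the common boundary bins largely set. The neighbour here was the next listed domain, also across an unlisted stretch. Among domains kept in both lists of the other vector, 209 of 2399 (8.71%, empty vector) and 207 of 2399 (8.63%, BAF47) had a changed neighbour. Among domains of 1 vector only, 190 and 207 had a neighbour on each side shared by both lists of their vector. Both neighbours had changed in 17 and 20 of these. Among 1730 pairs of adjoining domains of this length in both empty vector lists, the boundary between them moved while both outer ends stayed in 16, always by 1 bin. There were 16 of 1729 such pairs from the BAF47 side, and 12 sites were shared by both counts.

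The 2399 domains common to all lists formed 1207 runs, a run being successive domains identical in all 4 lists. In 590 runs there were 2 or more domains, which together held 74.3% of the common domains, and 80 runs of 5 or more held 20.2%. The longest runs had 11 domains each. One lay on chromosome 6 (32.3 to 34.8 Mb), with domains of 100 to 400 kb. Another lay on chromosome 14 (54.65 to 57 Mb), with domains of 100 to 300 kb. The third lay on chromosome 20 (30.5 to 33.6 Mb in the numbering of empty vector A), with domains of 100 to 450 kb. In all of them each pair of successive domains was separated by a single boundary bin. The run on chromosome 20 lies in the block where BAF47 B was moved by 1 bin, and was not a run of identical domains as listed.

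Several groups of domains of the empty vector lists lay inside a single BAF47 domain. On chromosome 4, both empty vector lists held domains of 150 kb (96 to 96.15 Mb), 400 kb (96.2 to 96.6 Mb) and 150 kb (96.65 to 96.8 Mb) beside one of 50 kb. Both BAF47 lists held 1 domain of 950 kb there (95.85 to 96.8 Mb). On chromosome 7, domains of 300 kb (14.6 to 14.9 Mb) and 100 kb (14.95 to 15.05 Mb) of both empty vector lists stood with one of 850 kb where both BAF47 lists held a domain of 1.35 Mb. On chromosome 3, both empty vector lists held domains of 150 kb at 118.2 to 118.35 Mb and at 118.5 to 118.65 Mb with a 50 kb domain between. The next domain, from 118.7 Mb, ended at 118.9 Mb in empty vector A and at 118.95 Mb in B. Both BAF47 lists held 1 domain of 800 kb (118.2 to 119 Mb). A further one of 700 kb stood on chromosome 4 (125.9 to 126.6 Mb), where each empty vector list had 4 domains. The first was 200 kb long in empty vector A and 250 kb in B. The others, a 200 kb domain (126.3 to 126.5 Mb) among them, were common to both. These sites held the empty vector domains whose nearer end lay farthest from any BAF47 edge, by 350 kb on chromosome 7, 300 kb on chromosome 3, 200 and 150 kb at the first site on chromosome 4 and 100 kb at the second.

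The reverse was seen at other sites. On chromosome 10, both BAF47 lists held the same 4 domains of 100, 100, 450 and 150 kb between 27.7 and 28.65 Mb, all of them within the set, where both empty vector lists held 1 domain of 1 Mb (27.65 to 28.65 Mb). On chromosome 5, the same 3 domains of 100, 350 and 300 kb between 35.05 and 35.9 Mb in both BAF47 lists stood in place of 1 domain of 900 kb. A 200 kb domain of both BAF47 lists on chromosome 2 (40.25 to 40.45 Mb) lay 450 kb from the nearest empty vector edge, inside a domain of 2.05 Mb. A 150 kb domain on chromosome 9 (90.35 to 90.5 Mb in the numbering of empty vector A) lay 300 kb from it, inside a domain of 1.25 Mb. The BAF47 lists were not identical at the last 2 sites. On chromosome 2, BAF47 B held a further domain of 250 kb (40.5 to 40.75 Mb) where BAF47 A listed none, and on chromosome 9 the end of the stretch was cut into 100 and 100 kb in BAF47 A and was a single domain of 250 kb in BAF47 B.

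The largest one-end changes joined such a domain with a longer neighbour or set one off. With empty vector, a 450 kb domain on chromosome 4 (18.15 to 18.6 Mb) stood beside one of 1.05 Mb, and with BAF47 the same start opened a domain of 1.55 Mb, 1100 kb longer. A 350 kb domain on chromosome 10 (34.55 to 34.9 Mb) stood beside one of 900 kb, and lay within a 1.3 Mb domain in both BAF47 lists. With BAF47, the last 150 kb (112.1 to 112.25 Mb) of an empty vector domain of 2.1 Mb on chromosome 7 were a domain of their own. So were the first 200 kb (115.75 to 115.95 Mb) of one of 1.25 Mb on chromosome 12, the first 150 kb (35.8 to 35.95 Mb) of one of 1.05 Mb on chromosome 17, and the first 200 kb (17.85 to 18.05 Mb) of one of 900 kb on chromosome 1. Both lists of each vector had identical ends at these 6 sites.

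A few domains of the set were parted into the same smaller domains in both lists of the other vector. They were 21 of the 3171 shared by the empty vector lists and 15 of the 3242 shared by the BAF47 lists. The longest with empty vector were a 450 kb domain on chromosome 22 (19.85 to 20.3 Mb), parted into 250 and 150 kb in both BAF47 lists, and 400 kb domains on chromosomes 4 (68.25 to 68.65 Mb) and 6 (41.4 to 41.8 Mb). Those with BAF47 were a 450 kb domain on chromosome 8 (120.55 to 121 Mb) and 400 kb domains on chromosomes 2 (30.75 to 31.15 Mb) and 6 (126.8 to 127.2 Mb). Each held 2 domains in each list of the other vector. Replicate lists differed in this way too. Of the domains not identical between single lists, 8.07% had both ends kept by different domains within vectors and 8.36% between them. Such splits need not be tied to the vector. Single sites were not tested, since presence in 2 lists against 2 allows no exact p below 0.33.

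The chromosomes differed in how densely they were cut into domains of this length. Per 100 Mb of listed domain length, chromosome 22 held 351 ± 14.6 of them, chromosome 17 held 328 ± 9.66 and chromosome 19 held 282 ± 13.9 (SD over the 4 lists). Chromosome 13 held 145 ± 7.88 and chromosome 4 held 156 ± 3.32. Their part of all domains was highest on chromosome 21 (78.1 ± 1.69%) and chromosome 22 (75.4 ± 2.23%) and lowest on chromosomes 6 (63.0 ± 0.79%) and 5 (63.0 ± 0.88%).

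Both BAF47 lists held more domains of 100 to 450 kb than both empty vector lists on 7 of the 22 chromosomes (1, 6, 10, 12, 17, 18 and 20) and fewer on 2 (4 and 13). For domains of every length this was so on 18.2% of the chromosomes upwards and on 0% downwards. With 2 lists against 2, such separation is common among 22 chromosomes by label assignment alone. Chromosome 6 held 244 in each empty vector list and 253 in each BAF47 list. Chromosome 17 held 187 in each empty vector list and 195 and 196 with BAF47. Chromosome 4 held 260 and 254 with empty vector and 252 and 253 with BAF47, and chromosome 13 held 125 and 121 against 117 and 115.

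Chromosomes 4 and 13 also showed the widest gap between retention within and between vectors. On chromosome 13, retention was 76.7% and 77.3% in the pairs within a vector and 62.2% to 70.1% in the pairs between vectors, a gap of 10.2 points of the means. On chromosome 4 it was 72.9% and 74.3% against 61.7% to 67.5%, a gap of 8.63 points. Chromosomes 7 (3.87 points) and 20 (5.72 points) were the only others on which both pairs within a vector exceeded all 4 between. The mean within a vector was the higher on 18 of the 22 chromosomes, and the lower on chromosomes 6, 9, 19 and 21. On chromosome 21 the gap was -6.64 points, with 68.2% within and 74.9% between vectors, on 59 to 64 domains a list. Without chromosomes 4 and 13, an alternative chosen after seeing these values, the gap over the genome was 2.40 points against 2.99 with them.

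Chromosomes 4 and 13 had the highest shares of empty vector domains that were in neither BAF47 list. Of the shared empty vector domains, 34 of 191 (17.8%) on chromosome 4 and 18 of 95 (18.9%) on chromosome 13 were in neither BAF47 list. Of the shared BAF47 domains, 29 of 184 (15.8%) and 11 of 89 (12.4%) were in neither empty vector list, and chromosome 17 came next after chromosome 4 with 24 of 155 (15.5%). The lowest shares were 0 of 38 and 1 of 46 (2.17%) on chromosome 21, and 5 of 166 (3.01%) for empty vector domains on chromosome 8. On chromosome 9 the shares were 8.09% and 10.7%, near those of the whole set once its numbering was aligned. These chromosomes were picked out after their values were seen, and no test was made between chromosomes.

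**Figure D5:**
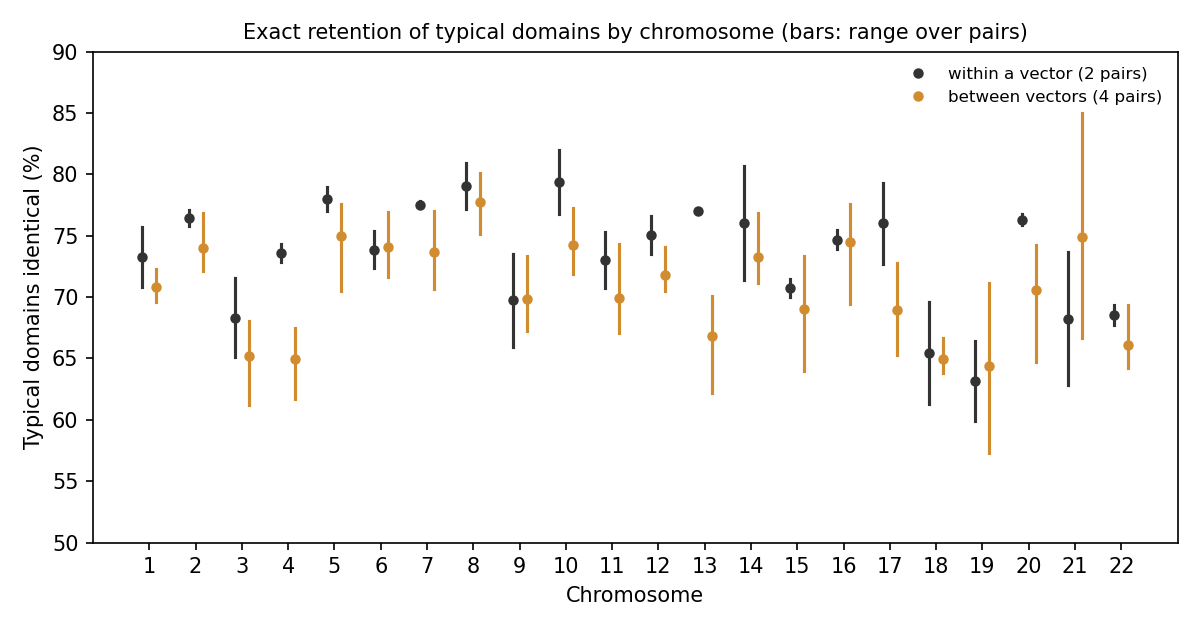
Exact retention of domains of 100 to 450 kb in percent (vertical axis, starting at 50%) by chromosome, on the aligned numbering. Points are means and bars the range over 2 pairs within a vector (black) and 4 pairs between vectors (orange). The bars stand fully apart, with the black one higher, on chromosomes 4, 7, 13 and 20.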

How the data were processed

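Hi-C was measured in 4 samples, 2 with empty vector and 2 with BAF47. The authors deposited 1 list of domains per sample, with chromosome, start and end and no score. Per the submitters' processing notes the build is hg18. The sources used here do not give the aligner, the domain caller or the filters. Lists were read with Python 3.11.15. Members are domains of 100 to 450 kb. Each chromosome of a list was aligned to empty vector A by tracing a shift of at most 3 bins that brought the most starts together (Viterbi path, a change of shift costing 10 matches). Blocks with at least 10 matched starts were moved as a whole. The procedure was tested on simulated data. Sample values were compared by exact two-sided permutation of the group labels. Intervals are 95% Wilson intervals for counting error. Sites named are the 5 domains per vector with ends farthest from edges of the other vector (none within 1 Mb of a chromosome end or of an unlisted stretch of over 1 Mb), the 5 largest one-end moves, the 3 longest split domains and the 3 longest common runs. Of the one-end moves, those at sites already described were not repeated. Members, numbering and rules were chosen with earlier results of these data known. Alternatives were the listed numbering, other length limits, matching within 1 bin, fewer chromosomes or lists, and pairing by letter.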

Additional observations from a re-analysis of the deposited data

How the results depend on the processing

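Of 132 alternative values of 12 results, 85 stayed and 47 moved, and 0 reversed. A share stayed if inside its counting interval, the gap in retention if within 1 SD of the pairs between vectors, and a count if within 1.5 times. A difference between sample means stayed if its direction held, even where the groups came to overlap. Only the differences between sample means (number, share and mean length) could be called reversed. They were bound to stay with the listed numbering and with pairing by letter, since neither changes a sample mean. With the numbering as listed, 71.9% of empty vector and 72.0% of BAF47 domains were kept, 45.8% and 48.1% of the changed ones kept 1 end, 73.0% and 72.0% had a changed neighbour, and the retention gap was 4.93 points. Matching within 1 bin gave 88.4% and 87.3% kept, 157 and 170 domains of 1 vector only, 38.2% and 43.5% with a changed neighbour, 51.0% of changed empty vector domains with 1 end kept, and a gap of 2.22 points. Leaving out domains beside unlisted stretches or chromosome ends gave 72.0% and 73.7% with a changed neighbour. The gap was 2.40 points without chromosomes 4 and 13. Without 1 list in turn, the ranges, empty vector then BAF47, were 61.9 to 83.9% and 60.1 to 82.5% kept, 58.8 to 77.4% and 60.6 to 78.0% with 1 end kept, 510 to 821 and 567 to 858 of 1 vector only, and 69.4 to 85.0% and 73.9 to 83.5% with a changed neighbour. The retention gap was 2.38 to 3.49 points. With the letters as a replicate block, the difference of 57.5 domains had an exact sign permutation p of 0.5, the smallest it can give. Retention was 71.2% in same-letter and 70.7% in other-letter pairs across vectors, and the labels do not say that letters pair the samples. The lists hold no depth or scores, so neither could be varied.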
